A study of Mus musculus with 2 samples.

Results

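The 9 genes described here encode the molecules by which blood leukocytes hold on to vessel walls: the endothelial selectins Sele (E-selectin) and Selp (P-selectin) and their leukocyte partner Selplg (P-selectin glycoprotein ligand 1), the immunoglobulin-family molecules Icam1, Icam2 and Vcam1, and the leukocyte integrin chains Itgal, Itgb2 and Itga4. They were chosen as a fixed list by name, 9 of the 32285 genes counted in the files, and all 9 were found under 1 symbol each. The study measured RNA in single cells of mouse kidney at day 14 after clamping of 1 renal artery (unilateral ischemia reperfusion injury, in which blood flow is stopped and then restored) and 4 tamoxifen injections. It holds 2 libraries, both labelled as batch 1: a control library with the genotype Cre-, and an endothelial PHD3 haplodeficient library with the genotype Cdh5-CreERT2; Phd3f/+. In the latter, the Cdh5 promoter drives a tamoxifen-inducible Cre recombinase in endothelial cells, and 1 of the copies of the prolyl hydroxylase gene Phd3 (Egln3 in the files) is flanked by loxP sites. Whether the controls carry a floxed allele, how many animals each library holds, and which part of the gene is removed are not given in the labels used here. Each group is 1 library, so no difference between the groups has a replicate check, and no test or p-value is given. All intervals are 95% intervals of counting error only.

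Leukocytes leave the blood in steps. Selectins on activated endothelium catch Selplg and related sugar-bearing proteins and let the cells roll. Chemokine signals then switch on the integrins, LFA-1 (the pair of Itgal and Itgb2) binding Icam1 and Icam2, and VLA-4 (Itga4 paired with Itgb1) binding Vcam1, which stops the cells before they cross the wall. Icam2 is present on resting endothelium. Sele, Vcam1 and Icam1 are known targets of cytokine signals that act through NF-kappaB, and Selp is stored in granules of endothelial cells and platelets. In kidney, Vcam1 is also known as a gene of injured proximal tubule.

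The inducible genes are shown first by the DNA before their start sites, since their levels set apart cells within the endothelium in the results. In the mouse genome GRCm38, Sele (ENSMUSG00000026582) lies on chromosome 1 from 164048234 to 164057677 and Selp (ENSMUSG00000026580) from 164115264 to 164150026 of the same chromosome, both on the plus strand, while Icam1 (ENSMUSG00000037405) lies on chromosome 9 from 21015985 to 21028817, also on the plus strand. Vcam1 (ENSMUSG00000027962) lies on the minus strand of chromosome 3 from 116109949 to 116129688, and Icam2 (ENSMUSG00000001029) on the minus strand of chromosome 11 from 106377656 to 106388075. The RefSeq promoter table for build GRCm38.p6 held 4 of the 9 genes, Icam1, Sele, Selp and Itga4. The 250 bases before the start of 3 of them follow, 5′ to 3′ on the plus strand, at chr9:21015690-21015939 for Icam1, chr1:164047984-164048233 for Sele and chr1:164115014-164115263 for Selp. Capitals mark matches to the NF-kappaB-like motif GGNNNTTCC on either strand and to the TATA box TATAAA.
Icam1: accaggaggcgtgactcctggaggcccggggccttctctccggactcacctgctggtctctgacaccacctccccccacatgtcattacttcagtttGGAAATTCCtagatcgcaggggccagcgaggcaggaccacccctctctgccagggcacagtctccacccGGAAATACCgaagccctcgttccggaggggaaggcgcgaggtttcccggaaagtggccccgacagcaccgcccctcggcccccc
Sele: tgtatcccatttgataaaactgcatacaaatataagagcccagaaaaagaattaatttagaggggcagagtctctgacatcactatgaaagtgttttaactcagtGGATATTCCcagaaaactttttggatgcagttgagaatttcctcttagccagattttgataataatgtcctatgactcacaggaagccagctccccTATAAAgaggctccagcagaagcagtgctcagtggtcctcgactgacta
Selp: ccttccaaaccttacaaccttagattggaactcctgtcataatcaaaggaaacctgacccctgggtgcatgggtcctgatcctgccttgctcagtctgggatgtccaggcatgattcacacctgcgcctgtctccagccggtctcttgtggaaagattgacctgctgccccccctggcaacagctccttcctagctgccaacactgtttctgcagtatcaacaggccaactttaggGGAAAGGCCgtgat
The Icam1 window ends before the RefSeq start, which lies upstream of the start of the gene in the annotation given above, and the distances that follow are from the RefSeq starts. The NF-kappaB-like letters start 153 bases before the start of Icam1, where they read GGAAATTCC and match on both strands, and again at 84 bases before it, on the minus strand. In Sele they start 145 bases before the start as GGATATTCC, with the TATA box at 49 bases. The Selp window holds 1 match on the minus strand, 14 bases before the start. The Itga4 window held neither motif. Of 32851 promoter windows of the same length, 15.7% held the NF-kappaB-like motif and 12.4% the TATA box, so a match describes the letters and not a site in use.

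The control library held 8737 cells and the haplodeficient library 9222 after removal of likely doublets, with a median of 8762 and 5472 UMIs (unique molecular identifiers, the counted RNA molecules) per cell. The median mitochondrial share was 10.2% in control and 2.69% in haplodeficient cells, so depth and mitochondrial share moved with the group. The cells kept in both libraries shared 28 barcodes. Cell classes were named from fixed marker genes, and each class name below stands for cells like that type. The proximal tubule made up 35.0% of the control and 3.61% of the haplodeficient cells, and leukocytes 14.5% and 40.5%. Egln3 in endothelial cells was at 24.4 (18.5 to 31.5) CPM (UMIs of the gene scaled to 1000000 UMIs of the class) in control cells and 21 (17.2 to 25.3) in haplodeficient cells, a ratio of 0.860 (0.620 to 1.20), and a 3′ count outside the removed part would not check the label. All 10 endothelial markers were detected in the endothelial cells of both libraries, and their summed level was 8146 and 9054 CPM.

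In endothelium the log2 ratios of the 4 vessel-side genes that could be compared ran from -0.36 to -0.05. With each library clustered on its own, Icam2 was at 0.11, Vcam1 at 0.03 and Selp at 0.02, so their sign was not stable. Of the 23 leukocyte pairs, 15 had a ratio whose interval included 1. The larger differences between the libraries were in how many leukocytes there were, in Vcam1 of proximal tubule cells and fibroblasts, in Icam1 of the thick ascending limb, and in Itgal of neutrophils. Where values are given in pairs, the control stands first. A level is the CPM of UMIs summed over the cells of a class. A gene was eligible for comparison where its levels averaged 50 CPM or more and its UMIs added up to 30 or more, and it passed the size rule if the log2 ratio with 5 CPM added was at least 1 in either direction and the Poisson intervals of the levels did not overlap. Over 16 classes with at least 50 cells in each library there were 144 pairs of gene and class. Of these, 43 were eligible, and 0 passed the size rule. Among all eligible genes, the share that passed ran from 0.770% in parietal epithelial cells to 4.84% in neutrophils. The log2 ratios of the 43 eligible pairs, haplodeficient over control, ran from -0.89 to 0.98 with a median of -0.08. The interval of the CPM ratio lay above 1 in 6 of these pairs, below 1 in 14 and included 1 in 23. The share of all eligible genes judged by this interval was not counted. These counts are thus descriptions and do not set the pairs apart from other genes.

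**Figure D1:**
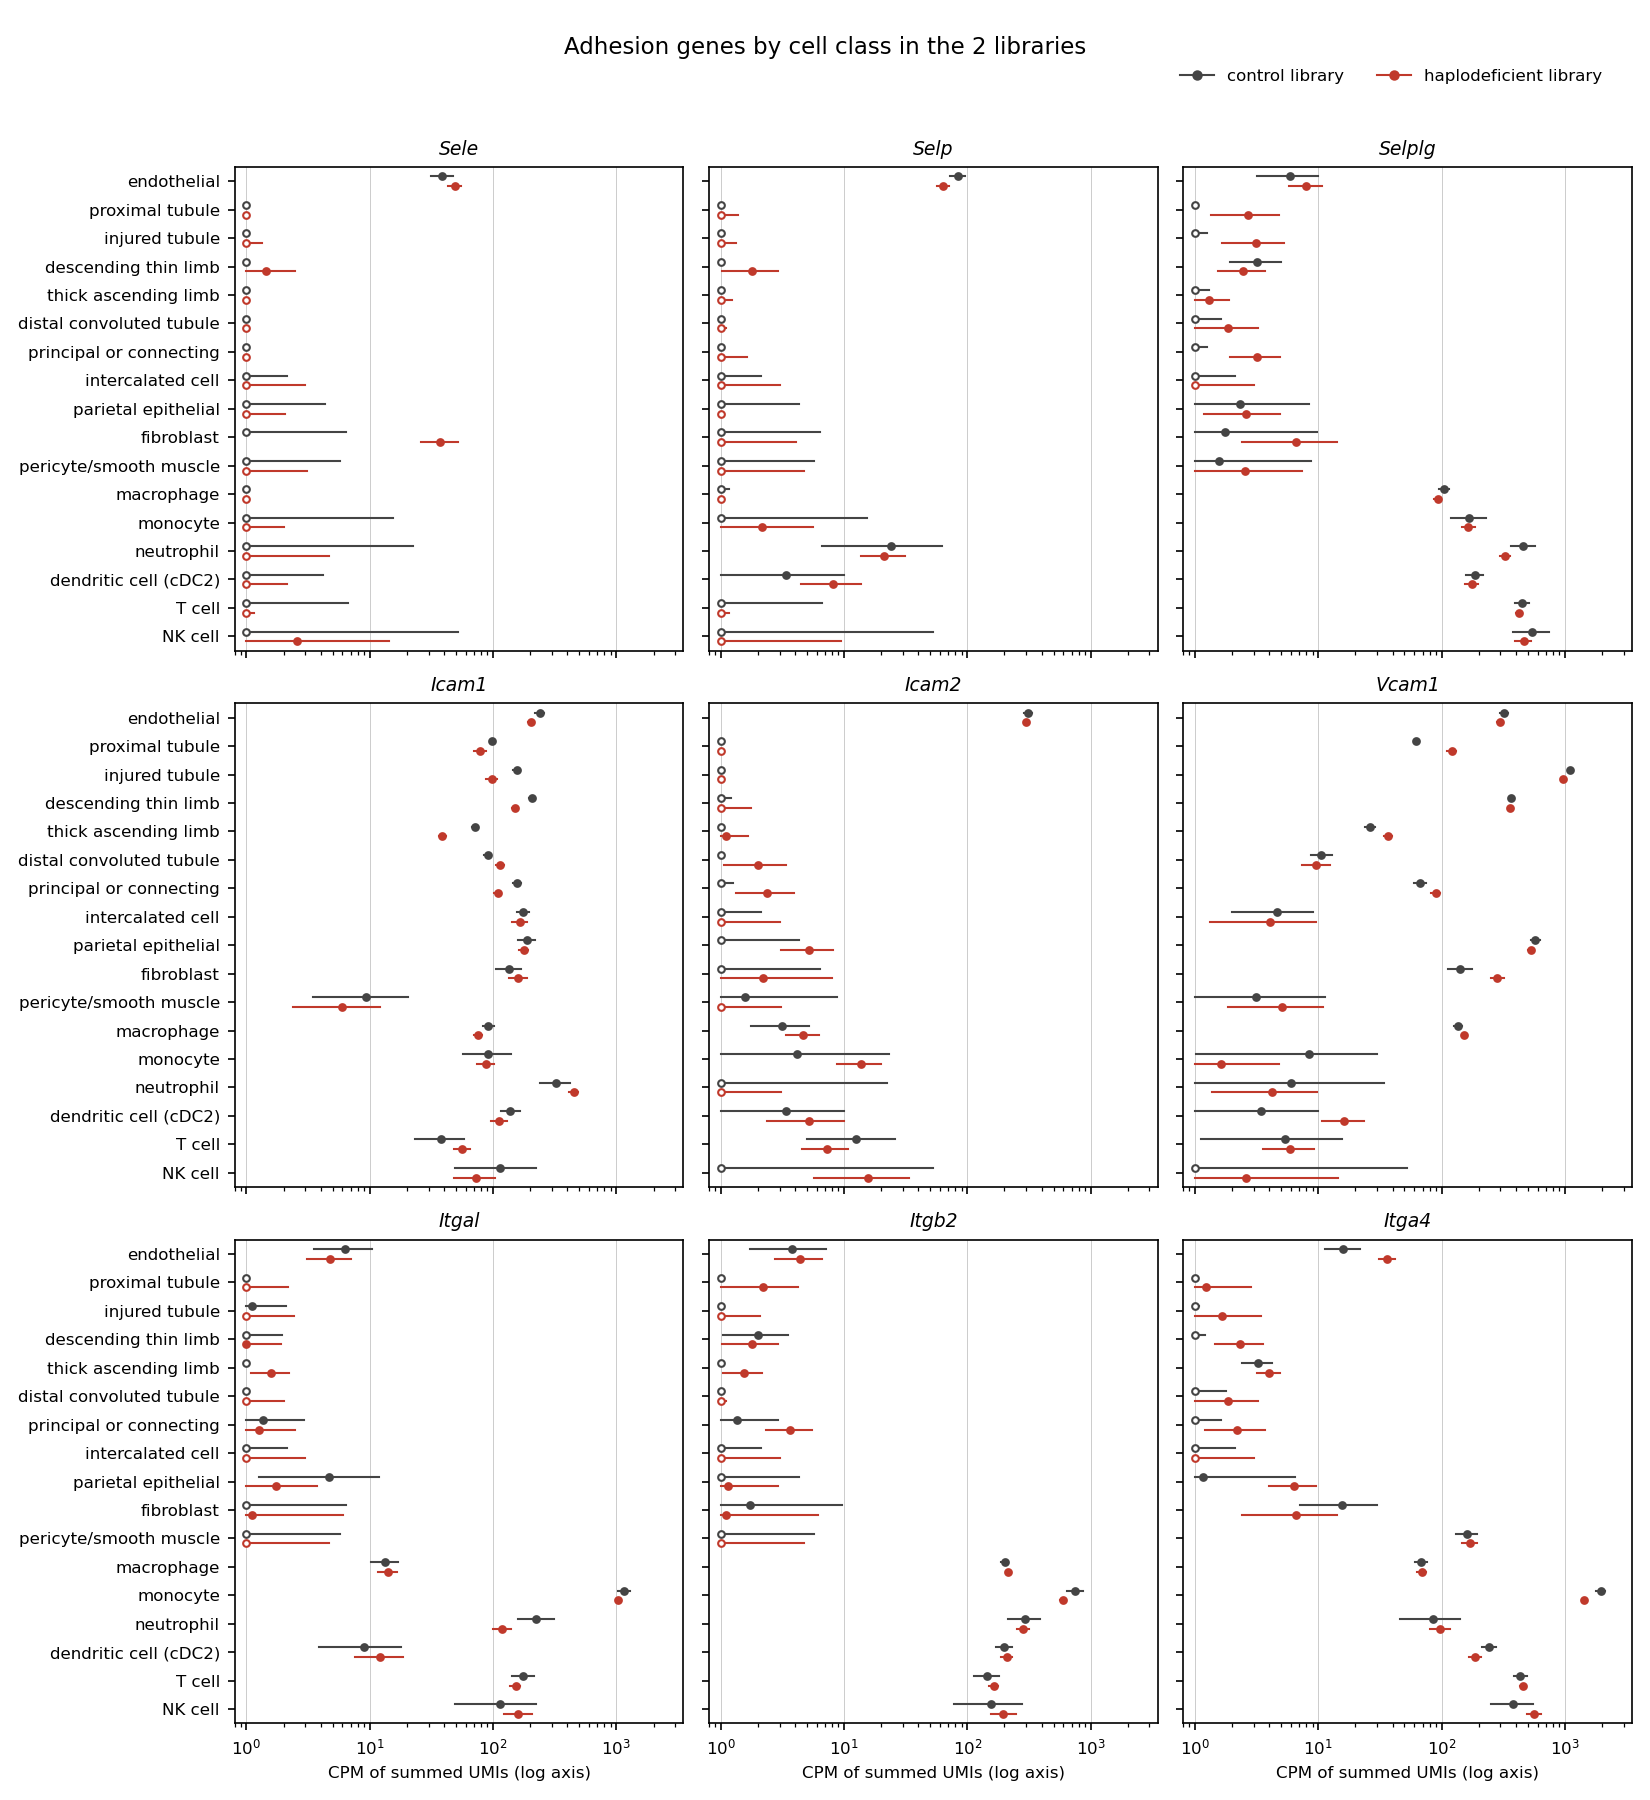
Level of each of the 9 genes (x axis, CPM of summed UMIs, log axis) in 17 cell classes (y axis) in the control library (grey) and the haplodeficient library (red); bars are 95% Poisson intervals of counting error, and open circles are values under 1 CPM drawn at 1. Sele, Selp and Icam2 are highest in endothelial cells, Vcam1 in injured tubule cells, and Itgal, Itgb2 and Itga4 in monocytes, in both libraries.

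Sele was mainly a gene of endothelial cells, and it was under the level rule there. It stood at 38.6 CPM (31.1 to 47.4) in the control, from 92 UMIs in 28 of 361 cells, and at 48.9 CPM (43.1 to 55.3) in the haplodeficient library, from 257 UMIs in 65 of 793 cells. These intervals overlap. After each cell was thinned to 1000 UMIs, so that depth is equal, 4.19% of 334 control cells and 3.56% of 759 haplodeficient cells kept a Sele UMI. Endothelial cells held 93.9% and 80.1% of all Sele UMIs. The remainder of the haplodeficient library rested largely on 1 fibroblast with 33 UMIs, and Sele was detected in 0 of 110 control fibroblasts, which allows a share of cells with a UMI, not of cells that express the gene, of up to 2.73%. In free RNA, measured in barcodes of 1 to 100 UMIs that hold no cell, Sele was at 0.157 and 1.64 CPM.

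Selp, the P-selectin gene, was likewise a gene of endothelial cells, which held 92.6% and 79.6% of its UMIs. Its level was 83.6 CPM (72.4 to 96.0) in control cells and 63.8 CPM (57.2 to 71.0) in haplodeficient cells. The haplodeficient level was the lower, with a ratio of 0.764 (0.639 to 0.915) and a log2 ratio of -0.36. This order rested on 1 cell: in the control, 78 of 199 UMIs came from a single cell, and without the cell with most Selp UMIs in each library the log2 ratio was 0.14. With each library clustered on its own it was 0.02. Outside the endothelium, neutrophils held 4 Selp UMIs in the control library and 25 UMIs, in 23 cells, in the haplodeficient library, at 24.2 and 21 CPM. Dendritic cells of the cDC2 kind held 3 UMIs and 14 UMIs, the latter in 10 cells, at 3.40 and 8.14 CPM. The descending thin limb held 0 and 16 UMIs and the thick ascending limb 6 and 16.

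Selplg, which both selectins bind, was found in every leukocyte class and was low in endothelium, at 5.88 and 8 CPM. Among classes with at least 20 cells in each library its highest level was in NK cells, at 538 CPM in 20 control and 462 CPM in 134 haplodeficient cells. In T cells it stood at 451 CPM (397 to 510) in control cells and 422 CPM (399 to 445) in haplodeficient cells. In neutrophils it stood at 460 CPM (363 to 576) and 327 CPM (296 to 361), a ratio of 0.711 (0.555 to 0.921) and a log2 ratio of -0.49. The neutrophil intervals do not overlap, while those of T cells do. Lower levels were found in dendritic cells of the cDC2 kind, at 185 and 176 CPM, in monocytes, at 167 and 165 CPM, and in macrophages, at 104 and 93.1 CPM. Among T cells, the CD8 cluster was higher than the CD4 cluster in both libraries, at 556 and 584 CPM against 398 and 325 CPM. At 1000 UMIs per cell, 32.9% and 35.7% of T cells and 31.2% and 26.2% of neutrophils kept a Selplg UMI. Neutrophils had the lowest depth of these classes, with a median of 1559 and 1775 UMIs per cell, and the part of depth in the values was not tested.

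Icam1, the inducible ligand of LFA-1, was the broadest of the 9 genes, eligible in 14 of the 16 classes. Its highest level in both libraries was in neutrophils, at 321 CPM (240 to 420) in control cells and 452 CPM (414 to 492) in haplodeficient cells. Endothelial cells came next, at 239 CPM (220 to 260) and 203 CPM (191 to 215). In the control, neutrophils and endothelial cells did not differ beyond counting error, with a ratio of 1.34 (0.993 to 1.78). In the control the descending thin limb followed at 208 CPM. In the haplodeficient library it was at 150 CPM, under urothelial cells (188 CPM, 24 cells), parietal epithelial cells, intercalated cells and fibroblasts, and endothelial and urothelial cells did not differ beyond counting error. Parietal epithelial cells, at 188 and 177 CPM, and intercalated cells, at 174 and 164 CPM, were close between libraries. All Icam1 levels stood beside a free RNA level of 77.0 and 90.0 CPM, and in endothelium free RNA was estimated at 5.57% and 5.97% of UMIs.

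Between libraries, Icam1 was lower in the haplodeficient library in 7 classes, judged by the interval of the ratio, and higher in 2. The share of all eligible genes judged so was not counted, and the shares below are for the size rule. Among the 7 is the thick ascending limb, whose log2 ratio was 0.35 with each library clustered on its own. In endothelial cells the ratio was 0.847 (0.764 to 0.939), a log2 ratio of -0.23, and over the 15 alternatives the log2 ratio stayed between -0.27 and -0.14. No endothelial gene among the 9 passed the size rule, where 0.878% of all eligible genes did. In neutrophils Icam1 was higher, with a ratio of 1.41 (1.06 to 1.90) and a log2 ratio of 0.49, beside 4.84% of eligible genes that passed the size rule there. At 1000 UMIs per cell, 19.8% of control and 26.4% of haplodeficient neutrophils kept an Icam1 UMI. The second class with a higher level was the distal convoluted tubule, at 90.7 and 114 CPM, a ratio of 1.26 (1.14 to 1.39).

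The thick ascending limb had the lowest Icam1 ratio of the 14 classes. Its level was 71.0 CPM (67.0 to 75.3) in control cells and 38.8 CPM (36.2 to 41.6) in haplodeficient cells, a ratio of 0.546 (0.499 to 0.598) and a log2 ratio of -0.80. The log2 ratio was 0.35 with each library clustered on its own and -0.38 with cells weighted equally. Within the class the difference lay in 1 cluster of 389 and 609 cells, numbered 4, at 100.0 CPM (93.9 to 106) against 41.8 CPM (38.8 to 44.9). This cluster passed the size rule with a log2 ratio of -1.17, as did 0.967% of its eligible genes. The other thick ascending limb cluster was at 21.7 and 23.6 CPM. The log2 ratio of the matching cluster was -0.88 with a mitochondrial limit of 25% and -1.74 with each library clustered on its own. The median mitochondrial share in cluster 4 was 6.38% and 4.13%, and the summed level of 11 genes of dissociation stress was 11800 and 14219 CPM, whose part in the result was not tested.

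Injured tubule cells, named from Havcr1 and other injury genes, held Icam1 at 155 CPM (146 to 164) in control cells and 97.4 CPM (88.2 to 107) in haplodeficient cells. Their intervals do not overlap, and the ratio was 0.629 (0.561 to 0.704). Principal or connecting tubule cells were at 157 and 109 CPM, a ratio of 0.692 (0.622 to 0.770). Proximal tubule cells were at 98.4 and 78.7 CPM, a ratio of 0.80 (0.711 to 0.897). Because there were so many of them, control proximal tubule cells held 29.9% of that library's Icam1 UMIs. Fibroblasts, at 134 and 159 CPM, had overlapping intervals.

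Icam2, the constitutive ligand of LFA-1, was eligible in endothelial cells alone. It was at 311 CPM (289 to 334) in control cells and 301 CPM (287 to 317) in haplodeficient cells. The intervals overlap, the ratio was 0.968 (0.887 to 1.06) and the log2 ratio -0.05. At 1000 UMIs per cell, 27.2% and 28.3% of endothelial cells kept an Icam2 UMI. The endothelial class held 78.7% and 75.9% of all Icam2 UMIs. A further 15.1% and 14.2% came from an unnamed cluster, numbered 32, with both endothelial and pericyte genes.

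Itgal, the alpha chain of LFA-1, was highest in monocytes, a class led by Adgre4, Treml4, Cd300e and Spn. Its level there was 1153 CPM (1022 to 1297) in the control, over 53 cells, and 1034 CPM (988 to 1082) in the haplodeficient library, over 372 cells. These intervals overlap. Monocytes held 44.3% and 64.9% of all Itgal UMIs. T cells were at 176 CPM (143 to 214) and 152 CPM (138 to 166), and NK cells at 113 CPM in 20 and 160 CPM in 134 cells. Macrophages, at 13.3 and 14.0 CPM, and cDC2 cells, at 9.06 and 12.2 CPM, were low in both libraries.

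Neutrophils gave the lowest ratio of the leukocyte pairs for Itgal. The control level was 224 CPM (158 to 309) from 37 UMIs in 103 cells, and the haplodeficient level 119 CPM (99.9 to 140) from 141 UMIs in 618 cells. The intervals do not overlap, the ratio was 0.529 (0.366 to 0.782), and the log2 ratio of -0.89 did not pass the size rule. With each cell named alone by its own markers the log2 ratio was -0.30. Free RNA was estimated at 6.29% of control and 3.44% of haplodeficient neutrophil UMIs, and with it subtracted the log2 ratio was -0.95.

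Itgb2, the beta chain that LFA-1 shares with other leukocyte integrins, was found over all leukocyte classes. In monocytes it was at 749 CPM (644 to 867) in control cells and 598 CPM (564 to 635) in haplodeficient cells, a ratio of 0.799 (0.682 to 0.940). In neutrophils it was at 291 CPM (214 to 386) and 283 CPM (253 to 315). In macrophages it was at 202 CPM (189 to 215) and 215 CPM (206 to 225). Only in monocytes did the interval of the ratio exclude 1, among the 5 leukocyte classes compared. Itgb2 in neutrophils thus stood at a ratio of 0.972 (0.717 to 1.34) beside the ratio of 0.529 for its partner Itgal in the same cells. Within macrophages, the cluster led by Gpnmb had more Itgb2, at 337 and 303 CPM, than the cluster led by Ccl12 and Mrc1, at 103 and 102 CPM.

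Compared over whole cell classes, Vcam1, the ligand of VLA-4, was highest in tubule cells in these kidneys. A small endothelial subcluster described below, numbered 5, was higher still, at 1697 and 1784 CPM. Injured tubule cells had the highest level of the classes, 1090 CPM (1068 to 1113) in control cells and 957 CPM (928 to 988) in haplodeficient cells. A Vcam1 UMI was found in 456 of 529 and 217 of 291 injured tubule cells. They held 52.0% of control and 26.7% of haplodeficient Vcam1 UMIs. Parietal epithelial cells at 577 and 528 CPM, the descending thin limb at 368 and 357 CPM, and endothelial cells at 321 CPM (298 to 344) and 295 CPM (281 to 310) followed in the same order in both libraries. Free RNA held 123 and 116 CPM of Vcam1.

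In injured tubule cells the Vcam1 ratio was 0.878 (0.846 to 0.912) and the log2 ratio -0.19. That direction depended on the cell definition, since the log2 ratio was 0.35 with each library clustered on its own and -0.48 with each cell named alone. In endothelial cells the ratio was 0.921 (0.844 to 1.01), with an interval that included 1. No pair of the tubule and parietal epithelial classes passed the size rule, among 13 that were eligible. The share of all eligible genes that passed was 2.91% in proximal tubule, 1.12% in injured tubule, 1.23% in the descending thin limb and 1.17% in the thick ascending limb. It was 1.80% in the distal convoluted tubule, 1.87% in principal or connecting tubule, 2.26% in intercalated cells and 0.770% in parietal epithelial cells.

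Vcam1 was higher in the haplodeficient library in proximal tubule cells, at 62.3 CPM (59.8 to 64.9) in control cells and 121 CPM (111 to 132) in haplodeficient cells. The ratio was 1.95 (1.76 to 2.15) and the log2 ratio 0.91, under the size rule, beside a median log2 ratio of 0.20 over all eligible genes of the class. The log2 ratio was 1.34 with doublets kept, 1.02 at a finer clustering, 1.04 with each cell named alone and 1.35 with each library clustered on its own, each past the size rule, and 0.54 with a mitochondrial limit of 25%. The difference was present within the largest proximal tubule cluster, numbered 0, of 1189 and 188 cells, at 74.2 CPM (70.5 to 78.0) and 132 CPM (120 to 146). Several measures moved with it. The summed level of the 8 injured tubule markers in proximal tubule cells was 268 and 509 CPM, the level of the 11 dissociation stress genes 3478 and 6611 CPM, the median mitochondrial share 22.7% and 7.67%, and the cell number 3056 and 333. Their part in the result was not tested.

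Fibroblasts gave the highest Vcam1 ratio. The level was 141 CPM (112 to 175) in 110 control cells and 283 CPM (250 to 320) in 118 haplodeficient cells, a ratio of 2.01 (1.56 to 2.62) and a log2 ratio of 0.98. This missed the size rule narrowly, which 2.79% of eligible fibroblast genes passed. It passed at 1.20 without the cell with most Vcam1 UMIs in each library and at 1.09 with cells weighted equally, and it was 0.37 with doublets kept. The summed macrophage markers in fibroblasts were at 494 and 400 CPM and the endothelial markers at 436 and 624 CPM, whose part was not tested. Pericyte or smooth muscle cells had little Vcam1, and 0 of their genes among the 9 passed the size rule, where 0.947% of eligible genes did.

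Macrophages carried Vcam1 too, at 136 CPM (126 to 147) in control cells and 153 CPM (145 to 161) in haplodeficient cells. The cluster led by Ccl12 and Mrc1 was at 212 and 297 CPM, and the cluster led by Gpnmb at 38.3 and 53.5 CPM. Between these 2 clusters, the one with more Vcam1 had less Itgb2, in both libraries. This order did not extend to the remaining macrophage cluster, numbered 24, of 48 and 199 shallow cells. Its Vcam1 was at 38.8 and 30.1 CPM, from 2 and 7 UMIs, and its Itgb2 at 77.7 and 103 CPM, from 4 and 24 UMIs.

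Itga4, the alpha chain of VLA-4, was highest in monocytes. Its level was 1949 CPM (1776 to 2133) in control cells and 1418 CPM (1364 to 1473) in haplodeficient cells, with a UMI in 53 of 53 and 355 of 372 cells. The intervals do not overlap, the ratio was 0.727 (0.659 to 0.804), and the log2 ratio of -0.46 lay between -0.52 and -0.40 over the alternatives. At 1000 UMIs per cell, 81.1% and 68.2% of monocytes kept an Itga4 UMI. In monocytes the interval of the ratio lay below 1 for Itga4 and Itgb2 and included 1 for Itgal. The size rule was passed by 4.05% of eligible monocyte genes and by 0 of the 9.

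T cells held Itga4 at 436 CPM (383 to 495) and 456 CPM (433 to 480), a ratio of 1.05 (0.912 to 1.20). By T cell cluster, CD8 cells were at 433 and 626 CPM, a ratio of 1.44 (1.13 to 1.86), CD4 cells at 482 and 446 CPM, and gamma-delta cells at 60.8 and 27.1 CPM. Levels in cDC2 cells were 243 CPM (212 to 278) and 188 CPM (168 to 209), a ratio of 0.771 (0.647 to 0.921). Pericyte or smooth muscle cells were the only class outside the leukocytes with an eligible Itga4 level, at 161 CPM (131 to 195) and 169 CPM (146 to 194). In endothelial cells Itga4 was at 16.0 and 36.2 CPM, and a small unnamed subcluster with podocyte genes held 89.5% and 76.8% of those UMIs. Over the 5 leukocyte classes 23 of 45 pairs were eligible and 0 passed, beside 1.03% of eligible genes in macrophages, 1.56% in cDC2 cells and 2.18% in T cells.

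**Figure D2:**
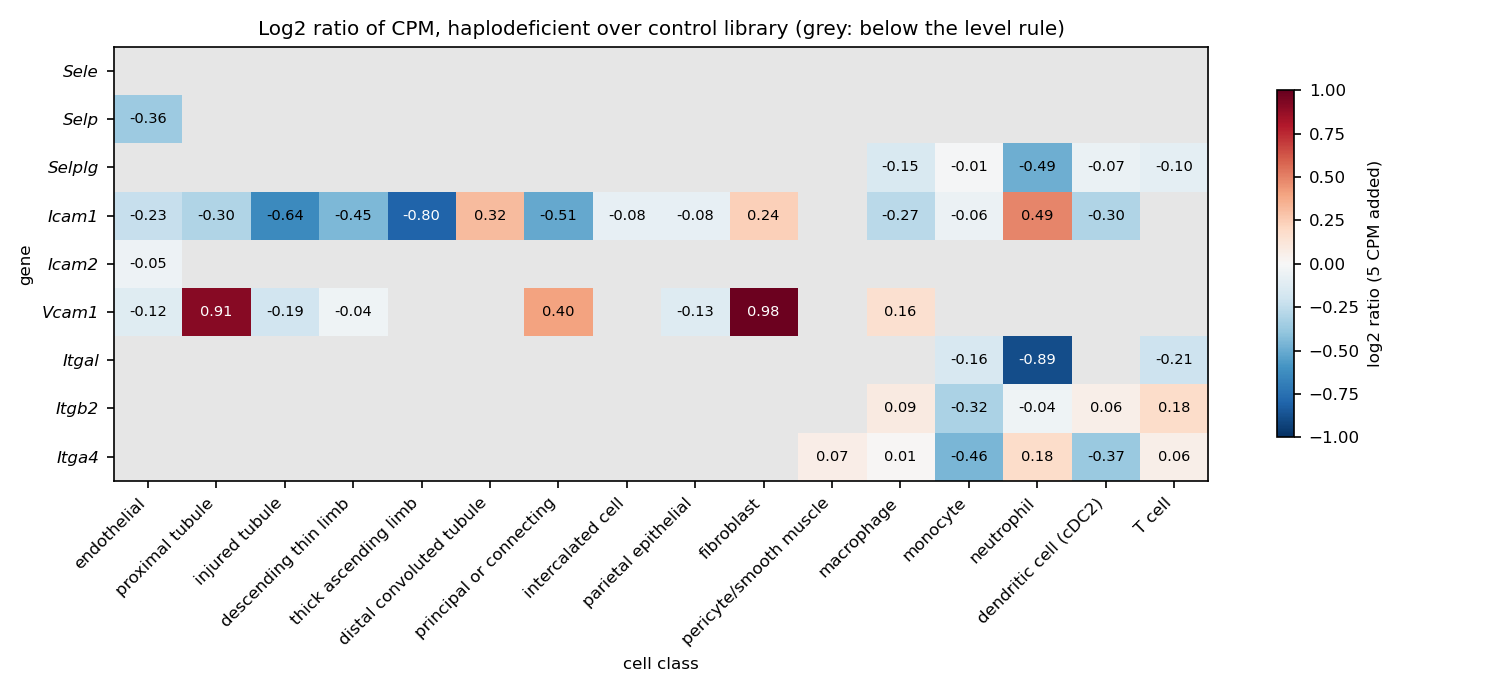
Log2 ratio of CPM, haplodeficient over control library with 5 CPM added (colour and printed value), for the 9 genes (y axis) in the 16 compared classes (x axis); grey cells are below the level rule, and each value compares 1 library with 1 library. The extremes are Vcam1 in fibroblasts (0.98) and proximal tubule (0.91) and Itgal in neutrophils (-0.89).

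Within the endothelium, 4 of the 5 vessel-side genes were highest in the same small group of cells in both libraries. Endothelial cells were clustered again without the 9 genes, into subclusters named by fixed markers where these allowed. Subcluster 5 held 38 of 361 control and 48 of 793 haplodeficient endothelial cells, 10.5% and 6.05%. It had no name under the rule, its leading genes were Nlgn1, Slco1a4, Igf1 and Flrt2, and it had the highest summed level of the 6 venous markers, 1379 and 1515 CPM, where the other subclusters ran from 171 to 982 CPM. Clustered cells cannot test their own genes, so the values that follow are a description.

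Selp in subcluster 5 was at 1127 CPM in the control, against 13 CPM in the other endothelial cells, and at 692 CPM against 36.4 CPM in the haplodeficient library. These are ratios of 86.7 (58.2 to 133) and 19.0 (15.2 to 23.7). The subcluster held 85.4% of endothelial Selp UMIs in the control, 78 of 170 in 1 cell, and 45.4% in the haplodeficient library. Sele was at 292 CPM against 21.5 CPM in control cells and at 596 CPM against 25 CPM in haplodeficient cells, ratios of 13.6 (8.80 to 20.8) and 23.8 (18.5 to 30.6). About equal parts of endothelial Sele UMIs, 47.8% and 51.0%, came from these cells.

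Vcam1 in subcluster 5 was at 1697 CPM against 228 CPM in control cells and 1784 CPM against 230 CPM in haplodeficient cells, ratios of 7.45 (6.39 to 8.68) and 7.74 (6.89 to 8.69). Icam1 was at 683 CPM against 209 CPM and 587 CPM against 186 CPM, ratios of 3.26 (2.61 to 4.05) and 3.16 (2.61 to 3.8). Icam2 went the other way, at 139 CPM against 323 CPM and 150 CPM against 308 CPM, ratios of 0.431 (0.265 to 0.665) and 0.488 (0.334 to 0.688). The ratio was above 1 for the 4 inducible or stored genes and below 1 for the constitutive Icam2 in each library under all 8 settings, the main one included. With each library clustered on its own, the matching control group was a subcluster of 106 cells that also matched the capillary cells. Subcluster 5 was thus not a group of its own in the control there. The Icam2 ratio in that control group was 0.869 (0.697 to 1.07), an interval that includes 1. Over those settings the ratios ran from 13.8 to 109 for Selp, 9.05 to 28.4 for Sele, 4.44 to 9.11 for Vcam1, 2.26 to 3.74 for Icam1 and 0.381 to 0.869 for Icam2. At 1000 UMIs per cell, Selp was kept by 38.2% of 34 control and 15.2% of 46 haplodeficient cells of the subcluster, and Sele by 20.6% and 26.1%.

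**Figure D3:**
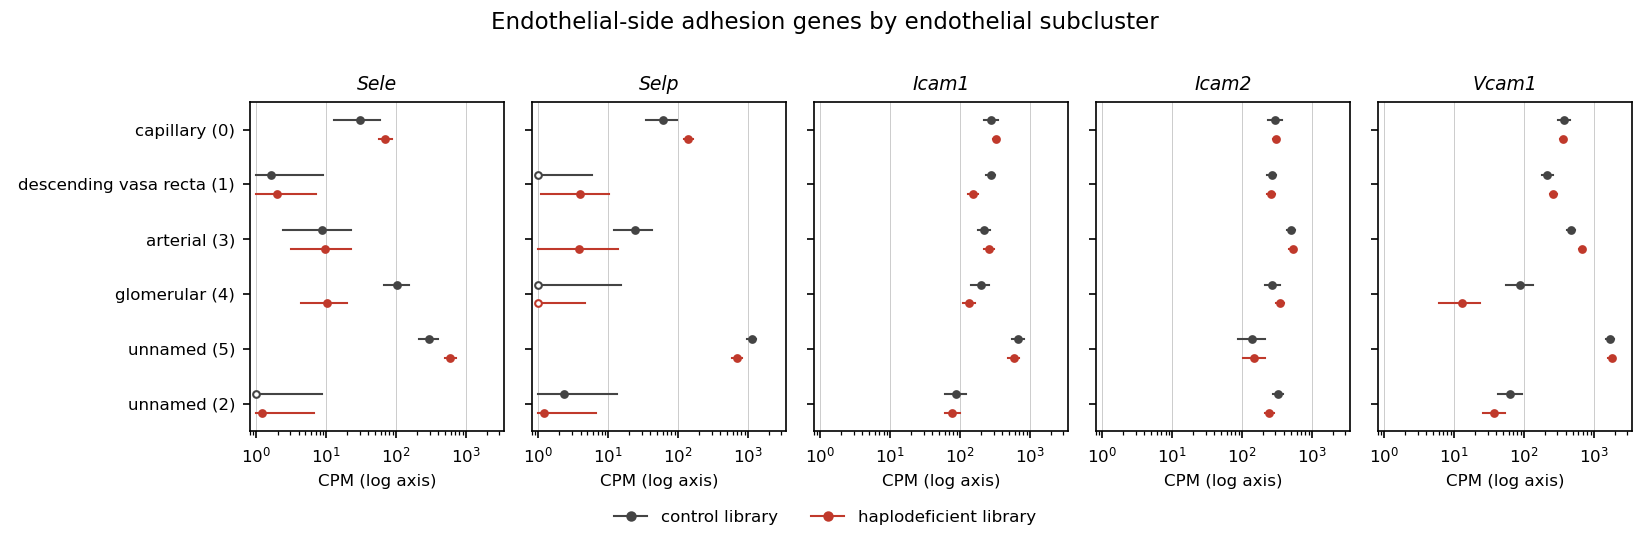
Level of the 5 vessel-side genes (x axis, CPM of summed UMIs, log axis) in 6 endothelial subclusters, with their numbers in brackets (y axis), in the control (grey) and haplodeficient (red) libraries; bars are 95% Poisson intervals, and open circles are values under 1 CPM drawn at 1. Sele, Selp, Vcam1 and Icam1 are highest and Icam2 lowest in unnamed subcluster 5.

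Arterial cells had the highest Icam2 of the subclusters, at 507 and 528 CPM, and Vcam1 at 470 CPM in control cells and 670 CPM in haplodeficient cells, a ratio of 1.43 (1.20 to 1.70). Sele, at 8.70 and 9.63 CPM, and Selp, at 23.9 and 3.85 CPM, were low there. Descending vasa recta cells held Icam1 at 275 CPM in control cells and 152 CPM in haplodeficient cells, a ratio of 0.554 (0.443 to 0.692) and a log2 ratio of -0.83. Their dissociation stress genes summed to 16037 and 10001 CPM, whose part was not tested. Unnamed subcluster 2 was low in Icam1, at 86.9 and 77.6 CPM, and in Vcam1, at 63.4 and 37.6 CPM. The size rule was passed by none of the 9 genes in these subclusters, beside 2.25% of eligible genes in arterial, 2.44% in descending vasa recta and 1.99% in subcluster 2 cells.

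Glomerular endothelial cells, 29 and 78 in number and too few in the control to compare, held no Selp UMI. After thinning to 1000 UMIs this count of 0 allows a share of cells with a UMI of up to 11.5% of 26 and 4.00% of 75 cells, which does not limit the share that expresses the gene. Their Sele level was 104 CPM (67.6 to 154), from 25 UMIs in 7 cells, and 10.1 CPM (4.38 to 20), from 8 UMIs in 5 cells. Of the 21 control Vcam1 UMIs there, 17 came from 1 cell.

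In capillary cells Selp passed the size rule, as did 2.88% of eligible genes. Its level was 59.9 CPM (34.2 to 97.2) in the control, from 16 UMIs in 7 of 71 cells, and 140 CPM (120 to 162) in the haplodeficient library, from 174 UMIs in 45 of 264 cells. The ratio was 2.33 (1.40 to 4.17) and the log2 ratio 1.16. The call and the direction changed with the setting. With each library clustered on its own the levels were 475 and 188 CPM and the log2 ratio -1.31, the matching control subcluster of 106 cells then holding 97.4% of the control cells of subcluster 5. It was 0.74 with doublets kept, 0.63 with the 9 genes used in clustering and 0.70 at a finer clustering, and 0.97 in the same cells when each was weighted equally, none of which passed the size rule. At 1000 UMIs per cell, 7.94% of control and 7.48% of haplodeficient capillary cells kept a Selp UMI.

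Some vessel-side genes were also found together in single cells. These shares are not separate from the values of subcluster 5, which held 85.4% and 45.4% of endothelial Selp UMIs. A Selp UMI was found in 35.7% of control endothelial cells with Sele and in 5.71% of those without, and in 36.9% and 6.46% in the haplodeficient library. Vcam1 was found in 72.4% of control cells with Selp and in 37.0% of the others, and in 74.6% and 32.0% in the haplodeficient library. For Icam2 there was no such gap, with Selp in 7.26% of control cells with Icam2 and 9.45% of those without, and 8.74% and 9.41% in the haplodeficient library. Depth differed along with these shares. Cells with Sele had a median of 8369 (control) and 6786 (haplodeficient) UMIs, against 3826 and 3752 for the others. Cells with Selp had 6304 and 5574, against 3919 and 3819.5, and cells with Icam2 had 6308.5 and 5201.5, against 2247 and 2690. The part of depth was not tested.

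Summed over all cells, the leukocyte-side genes were higher in the haplodeficient library, and the ratios were near 1 once both libraries were given the same cell classes. Selplg was at 12.6 CPM in control cells and 41.0 CPM in haplodeficient cells, Itgb2 at 15.7 and 51.5 CPM, and Itga4 at 16.5 and 67.0 CPM. Itgal was at 5.85 and 31.3 CPM, a ratio of 5.35. With the same class weights given to both libraries the ratios were 0.931 for Selplg, 1.02 for Itgb2, 0.896 for Itga4 and 0.894 for Itgal. In a sum over a whole library, more cells of a type and more RNA per cell cannot be told apart, and the share of each cell type in a suspension also depends on how the tissue came apart. Of the vessel-side genes, Icam2 was at 8.80 and 22.3 CPM over all cells, Selp at 2.01 and 4.50 CPM and Sele at 0.917 and 3.43 CPM, with ratios of 2.53, 2.24 and 3.74. With the same class weights these ratios were 1.04, 0.892 and 1.58. Vcam1 was at 159 and 160 CPM and Icam1 at 118 and 105 CPM.

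The largest leukocyte classes each took a larger share of the haplodeficient cells, beside the smaller share of proximal tubule cells in the same total. T cells were 2.03% of control and 11.3% of haplodeficient cells, neutrophils 1.18% and 6.70%, monocytes 0.607% and 4.03%, and macrophages 9.03% and 14.5%. Over all leukocytes together Itgal was at 73.4 and 153 CPM, a log2 ratio of 1.01, and it was the 1 gene of the 9 that passed the size rule, as did 2.46% of eligible genes. With the same class weights the levels were 124 and 110 CPM and the log2 ratio -0.17. Itga4 went from 197 and 305 CPM as found to 276 and 241 CPM.

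**Figure D4:**
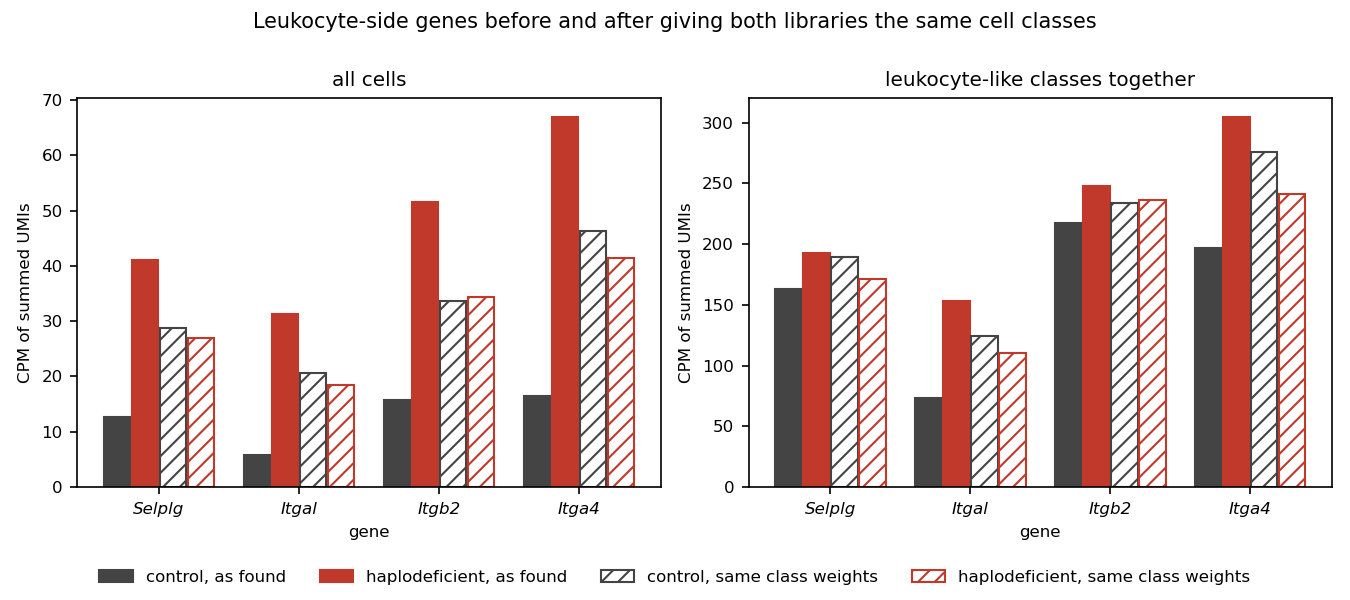
CPM of summed UMIs (y axis, from 0) for 4 leukocyte-side genes (x axis) over all cells (left) and over leukocytes together (right), as found (solid) and with the same class weights in both libraries (hatched), for the control (grey) and haplodeficient (red) libraries; bars are single libraries and have no error. Itgal over leukocytes together is at 73.4 and 153 CPM as found and at 124 and 110 CPM with the same weights.

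The other genes of the adhesion cascade were read from 7 lists of 73 genes in all. In endothelial cells 0 genes of any list passed the size rule, beside 0.878% of all eligible genes and a median log2 ratio of -0.00 over them. Of the selectins and selectin ligand carriers, 5 of 10 were eligible with a median log2 ratio of 0.07, among them the sialomucins Emcn, at 1371 and 1797 CPM, and Cd34, at 405 and 463 CPM. Of the enzymes that build selectin ligands, 6 of 10 were eligible with a median of -0.18, and Gcnt1, a branching glycosyltransferase, was at 65.9 and 35.2 CPM, a log2 ratio of -0.82, and B4galt1, a galactosyltransferase, at 84.0 and 55.2 CPM. Of the other integrin chains 4 of 11 were eligible, with a median of -0.06, including Itgb1, the partner of Itga4, at 415 and 511 CPM, and Itga5 at 98.7 and 81.1 CPM. Of the integrin activation genes 3 of 9 were eligible, with a median of 0.27, including talin (Tln1) at 170 and 233 CPM and Rap1a at 206 and 249 CPM.

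Among the other immunoglobulin adhesion and junction genes 8 of 13 were eligible in endothelium, with a median log2 ratio of -0.02. The extremes were Plvap, which forms the diaphragms of fenestrae, at 475 and 781 CPM (0.71), and Jam2, a junction molecule, at 385 and 320 CPM (-0.26). Of the anchors and sheddases 8 of 9 were eligible, with a median of -0.08, among them the tetraspanin Cd151 at 131 and 156 CPM and ezrin (Ezr) at 66.8 and 56.6 CPM. Of the inducers of endothelial adhesion genes 5 of 11 were eligible, with a median of -0.09, among them the transcription factor genes Irf1 at 606 and 499 CPM and Nfkb1 at 157 and 129 CPM. In leukocytes, Tnf, the cytokine that induces Icam1, Vcam1 and Sele, was called higher in T cells, at 52.1 CPM from 29 UMIs and 365 CPM from 1166 UMIs, a ratio of 7.02 (4.86 to 10.5). Il1a was called higher in neutrophils, at 182 and 490 CPM. Lower calls were Itgb3 in T cells, at 82.6 and 31.7 CPM, St3gal6, a sialyltransferase, in macrophages, at 114 and 52.5 CPM, and Rasgrp1 in monocytes, at 179 and 72.3 CPM. Each was the only call of its list in its class. Among all eligible genes, 2.18% passed in T cells, 4.84% in neutrophils, 1.03% in macrophages and 4.05% in monocytes. Single calls beside such shares are descriptions and do not set these lists apart.

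The genes whose pattern over the classes was most like each member were found over 32 points, 16 classes in each of the libraries, which share library and depth, among 8556 genes. The values are Pearson correlations of log2 levels and are given as descriptions. For the vessel-side genes they were Fgd5 (0.921) and Ptprb (0.914) for Sele, Rasip1 (0.954) and Sema6b (0.954) for Selp, and Fam167b (0.946) and Ripply3 (0.939) for Icam2. For Icam1 they were lower, Lasp1 (0.811) and Rhbdf2 (0.726), and for Vcam1 the closest was Cp (0.824). For the leukocyte-side genes they were Rac2 (0.993) and Mir142hg (0.990) for Selplg, Arhgap30 (0.993) and Il10ra (0.989) for Itgb2, Tmem156 (0.929) and Ly6c2 (0.926) for Itgal, and Rap1a (0.908) and Trpv2 (0.901) for Itga4. Among the 9 genes themselves Selplg and Itgb2 were the closest pair, at 0.96, and Icam2 and Sele were at 0.76.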

How the data were processed

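Single-cell RNA was counted in 1 control and 1 haplodeficient kidney library. The deposited matrices hold raw UMI counts per gene and barcode, made with Cell Ranger 4 per the file headers; the build is mm10 per the submitters' processing notes, and the annotation is not given in the sources used here. Cell hashing is named in the labels' protocols, but hashtags were not used here.

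Barcodes with at least 500 UMIs, 200 genes and at most 50% mitochondrial UMIs were kept. Doublets were removed by their Scrublet score in scanpy 1.11.5, taking 0.8% for each 1000 cells, that is 7.56% of control and 8.02% of haplodeficient barcodes. Both libraries were clustered together on 2000 variable genes without the 9 genes, with 30 principal components and the Leiden method at resolution 1 (0.5 for endothelial cells). Clusters were named from marker lists by a scoring rule (at least 3 markers) set after the data were seen, so class names are rebuilt and not the authors'.

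UMIs were summed per class and library. All intervals are exact and at 95%, Poisson for levels, Clopper-Pearson for shares and conditional binomial for ratios of CPM. They cover counting error only, and molecules of 1 cell are not independent. Upper limits given for a share at 0 are not from these intervals but are 3 counts over the number of cells. The Clopper-Pearson limits are higher, at 3.30% for Sele in control fibroblasts and 13.2% and 4.80% for Selp in glomerular endothelial cells. With 1 library per group no count test was run. The named genes are the 9 members, list genes that passed the size rule in endothelium or a leukocyte class or were among the 2 most extreme of their list in endothelium, and the 2 most similar genes per member, of which 1 is not reported here. The members and lists were chosen with earlier results of these data known. The comparison was tested on simulated Poisson counts at the depth of the endothelial cells. These had no spread between cells or libraries, so the test cannot show how the size rule does where such spread is present. Alternatives changed the cell filters, doublets, clustering, naming, scaling, added CPM, eligibility, free RNA and weights; leaving mitochondrial UMIs out of totals, leaving out the top cell, matched clusters, and class weights were chosen after seeing the data. Gene positions are from GENCODE M21.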

Additional observations from a re-analysis of the deposited data

Results flagged for a closer look

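In the main clustering, the ratio of Icam1 between libraries went in opposite directions in different cell classes. In neutrophils the log2 ratio of haplodeficient over control was 0.49, and in the thick ascending limb it was -0.80, a difference of 1.29. For Vcam1 the log2 ratio was 0.98 in fibroblasts and -0.19 in injured tubule cells, a difference of 1.17. With each library clustered on its own, Icam1 in the thick ascending limb and Vcam1 in injured tubule cells were both at 0.35. The lower side of each contrast thus changed sign, and neither opposition of direction was stable. Each class is 1 library against 1 library, so neither difference was tested.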

How the results depend on the processing

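Over 63 levels and ratios, 699 alternative values were computed: 625 moved by less than counting error, 72 by more, and 2 that had passed the size rule changed sign. Among log2 ratios that had not passed it, 37 values over 21 results changed sign, 6 of them with each library clustered on its own, including Icam1 in the thick ascending limb and Vcam1 in injured tubule (both 0.35). Selp in endothelium was at 0.14 without the cell with most UMIs. The 2 called values were Selp in capillary cells, at a log2 ratio of -1.31 with each library clustered on its own, and Itgal over leukocytes together, at -0.17 with the same class weights. The number of the 9 genes that passed the size rule in endothelial cells was 0 in all 15 alternatives. In epithelial classes it was 1 instead of 0 with doublets kept, at Leiden resolution 2, with each cell named alone and with each library clustered on its own, each time Vcam1 in proximal tubule. In leukocyte classes it was 1 at resolution 2 (Icam1 in cDC1 cells, too few to compare otherwise) and 3 with each cell named alone (Itga4 in neutrophils, at 1.03, and Vcam1 and Itgal in cDC1 cells). No paired analysis was possible because there is 1 library per group and no test; for the same reason no library could be left out. Counting intervals limit the classes with few cells, such as control monocytes and neutrophils, and the floor of 3 counts applies to values at 0.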

Other observations

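Of the 11 inducer genes, 7 were eligible in T cells with a median log2 ratio of 0.44, and 1, Tnf, passed the size rule, beside 2.18% of all eligible T cell genes and a median of -0.05 over them. In macrophages 9 were eligible with a median of 0.17, and Tnf was at 126 CPM in the control and 220 CPM in the haplodeficient library. In neutrophils 10 were eligible with a median of 0.14, and Tnf was at 466 and 745 CPM. Tnf did not pass the size rule in macrophages or neutrophils. Of the eligible inducers, 5 were higher and 4 lower in macrophages, and 6 were higher and 4 lower in neutrophils. Over all eligible genes the median log2 ratio was -0.01 in macrophages and -0.08 in neutrophils, and 1.03% and 4.84% passed the size rule.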
